A study of Mus musculus with 8 samples.

Results

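The cells described here are the fraction labelled neurons that was sorted from the inner ear of newborn mice, 1 library from the cochlea and 1 from the vestibular organs, hence 2 of the 8 mRNA-seq libraries of the table. They were set against the 6 libraries of epithelial cells, mesenchyme and vascular endothelium, 3 from each organ. All 8 libraries were labelled postnatal day 0 and came from dissociated inner ears of newborn ICR mice, an outbred stock for which the labels name no mutation and no treatment, stained for CD326, CD49f and CD34. Each cell type of each organ had 1 library, and the sources used here do not say whether animals were pooled. The cochlear and vestibular libraries served as the 2 replicates of a cell type, so p-values measure only the spread between these libraries, which includes any way in which a cell type differs between the organs.

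The eighth cranial nerve carries the axons of bipolar sensory neurons whose cell bodies lie in the spiral ganglion of the cochlea and in the vestibular ganglion. These cell bodies and axons are wrapped by glia of neural crest origin, the Schwann cells along the axons and the satellite glia around the cell bodies. Around birth, Schwann cells of peripheral nerves still divide while they sort axons and begin to switch on the myelin genes under the transcription factors SOX10 and EGR2. CD49f, used in the sort, is integrin alpha 6, a laminin receptor that Schwann cells carry as well as epithelial and endothelial cells.

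Each gene has a deposited signal, and the distribution of the signal is the same in every library, with a lowest value of 20, called the floor here. A gene listed at 20 may lie anywhere below it, and folds over such a value are given as at least that size. In bulk libraries such as these, fewer cells of a type and less RNA per cell cannot be told apart. Differences are given on the log2 scale as neurons minus the mean of the other 3 cell types, and pairs of values are given with the cochlear library first.

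The marker genes of the fraction gave an uneven picture of its label. Fabp7, which encodes the fatty acid binding protein of immature glia, had 32734 and 42828 in cochlear and vestibular neurons, 431 and 474 in epithelial cells, 419.9 and 1972 in mesenchyme, and 281 and 2289.8 in vascular endothelium. Both neuron libraries lay above the 6 others, by 75.9-fold in the cochlea and 18.7-fold in the vestibule over the next highest library of the organ. Itga6, which encodes CD49f, had 28444 and 18735 in cochlear and vestibular neurons, 4308 and 3516 in epithelial cells, 514 and 265 in mesenchyme, and 10282 and 7999 in vascular endothelium. It was highest in neurons in each organ, with vascular endothelium next, and its difference was 3.29 ± 0.25 (SE, adjusted p = 0.0054). Because CD49f was an antigen of the sort, this test is no separate evidence on the label. Nefm, which encodes the medium neurofilament subunit of axons, had 1507 and 145 in cochlear and vestibular neurons, 1147 and 2140.1 in epithelial cells, 614 and 91.4 in mesenchyme, and 77.6 and 186 in vascular endothelium. The cochlear neuron library was the highest of its organ by 1.32-fold, while the vestibular epithelium held more than the vestibular neurons, and the difference did not pass the test (0.40, adjusted p = 0.874). The antigens of the other gates were low in cochlear neurons and less so in vestibular neurons, with 44.8 and 865 for Epcam (CD326) against 14252 and 21678 in epithelial cells, and 127 and 1788 for Cd34 against 40862 and 22463 in vascular endothelium. The glial marker was thus highest in neurons in both organs and the axonal marker in the cochlea alone, so the libraries are called the neuron and glia fraction below, and single libraries keep their label of neurons.

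The neuron libraries of the organs were nearest to different cell types. Across genes, the Spearman correlation between the cochlear and vestibular neuron libraries was 0.922, that of vestibular neurons with vestibular vascular endothelium was 0.888, and that of cochlear neurons with cochlear vascular endothelium was 0.802. With the mesenchyme of the organ, cochlear neurons had 0.875 and vestibular neurons 0.84. The vestibular and cochlear vascular endothelium had 0.877. Endothelial markers were higher in vestibular than in cochlear neurons for 22 of 23 genes, with sums of 20504.5 and 3256 against 192143 and 388888 in vascular endothelium, and epithelial markers for 25 of 26, with sums of 18197 and 1590.4. Over all genes, the vestibular neuron library had the higher value in 43.5%. For this reason the median of a list is also given for the cochlear libraries alone, without any vestibular library, and for the vestibular libraries alone.

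Across the 15067 genes above the floor in at least 1 library, 522 were higher and 219 lower in the neuron and glia fraction than in the mean of the other 3 cell types at an adjusted p under 0.05 in limma, which is 3.46% and 1.45% of the genes tested. Of the 522 genes, 44 belonged to the Schwann cell lists, 33 to the cell division lists and 8 to the neuronal lists, and 415 to none of the lists used here. The higher genes had a median difference of 2.75 (range 1.04 to 6.74), against -0.05 over all genes tested. Both neuron libraries lay above all 6 others for 435 of the 522, a pattern found in 6.48% of all genes tested. Against single cell types, the fraction was higher for 947 genes and lower for 1090 in the contrast with epithelial cells (6.29% and 7.23%), for 402 and 336 with mesenchyme (2.67% and 2.23%) and for 683 and 691 with vascular endothelium (4.53% and 4.59%). It was higher than each of the 3 types for 188 genes (1.25%) and lower than each for 16 (0.106%). The test had 3 residual degrees of freedom. Without the vestibular vascular endothelium it called 252 genes higher and 185 lower, with 226 and 66 of these among the 522 and 219, and without any single one of the other 7 libraries it called none at the same threshold, with 959 to 1588 genes higher at an unadjusted p under 0.05. All of these genes kept their direction in each of these fits.

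**Figure D1:**
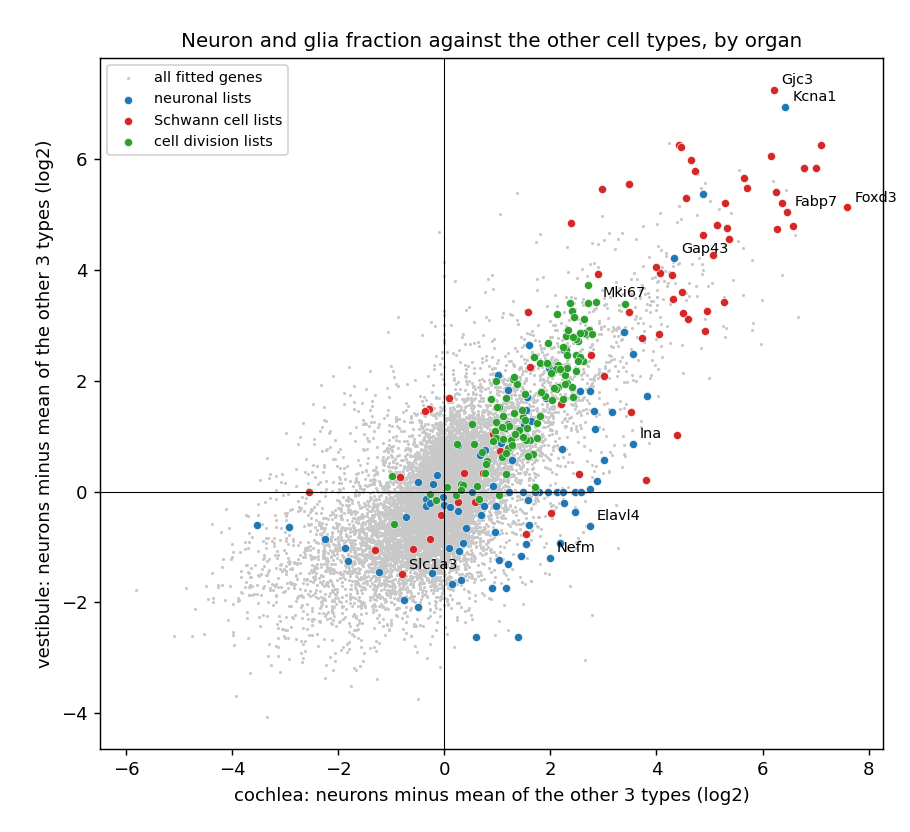
Log2 difference between the neuron library and the mean of the other 3 cell types of the same organ, for the cochlea (horizontal axis) and the vestibule (vertical axis), 1 point per gene. Schwann cell genes (red) reach 7 in both organs, cell division genes (green) lie along the diagonal with 103 of 110 positive in both, and neuronal genes (blue) spread to the right along the horizontal axis, with a median of 1.23 in the cochlea and 0.00 in the vestibule.

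The genes of the Schwann cell lineage set the fraction apart. As for all lists here, members were chosen with earlier results of these data known. The shares below therefore describe the fraction and are no separate evidence on it. Of 69 measured members of 3 lists, 44 (63.8%, against 3.46% of all genes) were higher and 0 lower in limma, and 31 were higher than each of the other 3 cell types, as were 1.25% of all genes. The median difference was 3.90, with 4.08 in the cochlea and 3.42 in the vestibule, and 45 members (65.2%) had both neuron libraries above all 6 others. At an unadjusted p under 0.05, 53 members were higher and 1 was lower, against 1545 and 1600 of the 15067 genes tested.

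Of 22 genes of myelin and its lipids, 16 were higher and 0 lower, with a median of 4.13, which was 4.36 in the cochlea and 4.35 in the vestibule. Gjc3, the gene of a connexin of myelinating glia on chromosome 5 from 137953461 to 137963098 of GRCm38, had 10937 and 30702 in cochlear and vestibular neurons, 75.1 and 148 in epithelial cells, 304 and 76 in mesenchyme, and 137 and 715 in vascular endothelium. The groups did not overlap, and the difference was 6.74 ± 0.80 (SE, adjusted p = 0.0125), the largest of the genes called. Dhh, the hedgehog ligand by which Schwann cells organise the nerve sheath, had 4654 and 3205 in cochlear and vestibular neurons, 20 and 29.4 in epithelial cells, 20 and 20 in mesenchyme, and 186 and 294 in vascular endothelium, at the floor in 3 of the other libraries. Pmp22, a dosage-sensitive myelin protein gene, had 18963 and 49104 in neurons and 203 to 3544 in the others. For some members the other libraries were all or nearly all at the floor. Pmp2, the fatty acid binding protein of peripheral myelin, had 158 and 888 with the 6 others at 20, a level at least 7.89-fold higher in the cochlea and at least 44.4-fold higher in the vestibule. Mag, which encodes a glycoprotein of the inner myelin wrap, had 707 and 527 against 20 to 28.1, and Gldn, the gliomedin with which Schwann cells gather sodium channels at nodes, had 503 and 1399.9 against 20 to 26.5. The members that were not called included Cldn11 and Nfasc, which were highest in mesenchyme with 2209 and 3812 and 2403 and 1855. Gjb1, a connexin gene of myelin, was not called either, with 117 and 25 in neurons and 20 in every other library.

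The immature Schwann cell and satellite glia list had 22 of 32 members higher and 0 lower, with a median of 3.98, which was 4.17 in the cochlea and 3.77 in the vestibule. Ednrb, the endothelin receptor of neural crest derivatives, had 109100.4 and 98907 in cochlear and vestibular neurons, 867 and 1846 in epithelial cells, 2947 and 2275 in mesenchyme, and 1134 and 2944 in vascular endothelium. Both neuron libraries lay above the 6 others, by 37-fold in the cochlea and 33.6-fold in the vestibule over the next library of the organ. Erbb3, the neuregulin receptor on which the Schwann cell lineage depends, had 25882 and 17510.0 in cochlear and vestibular neurons, 7182 and 5179 in epithelial cells, 272 and 156 in mesenchyme, and 236 and 910.0 in vascular endothelium, so that epithelial cells came next and the gene did not pass against each of the 3 types, while the difference from their mean was 4.67 ± 0.55 (SE, adjusted p = 0.0124). Its partner Erbb2 had 3744 and 2189 in neurons against 850.3 to 2208 and did not pass (0.89, adjusted p = 0.0792). Ngfr, the low affinity neurotrophin receptor of immature Schwann cells, had 1434 and 2107 against 31.1 to 279.5, and the adhesion molecule genes L1cam and Ncam1 had 1412 and 3087 against 20 to 79.4 and 5271 and 7000.5 against 107 to 1030.3. All 3 were higher than each other type. Kcnj10, the inward rectifier channel of satellite glia, had 7848 and 6974 against 66.9 to 735. The same list held glial genes without a higher value. S100b had 370.5 and 1132 in neurons and 848 and 3024 in mesenchyme, Slc1a3, a glutamate transporter of glia, had 469 and 1157 against 4818 and 13674 in mesenchyme, and Gfap was at the floor in both neuron libraries.

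Transcription factors of the lineage were higher for 6 of 15 members, with a median of 2.49, which was 2.76 in the cochlea and 1.59 in the vestibule. Foxd3, a neural crest factor, had 7121 and 2326 in cochlear and vestibular neurons, 20.9 and 68.5 in epithelial cells, 20 and 20 in mesenchyme, and 119 and 208 in vascular endothelium, with a difference of 6.37 ± 0.66 (SE, adjusted p = 0.00899). Tfap2a had 469 and 1206 against 20 to 71.5, with 5 of the 6 other libraries at the floor. Sox10 had 18735 and 10028 in cochlear and vestibular neurons, 7036 and 7999 in epithelial cells, 396 and 211 in mesenchyme, and 199.9 and 738 in vascular endothelium. Both neuron libraries were the highest, epithelial cells had the next values, and the ratio in the vestibule was 1.25-fold. The difference from the mean of the 3 types was 3.87 ± 0.56 (SE, adjusted p = 0.0215), and that from epithelial cells alone did not pass (adjusted p = 0.496). Sox2 showed the same order, with 4249 and 3065 in neurons and 1439 and 2679.8 in epithelial cells. Egr2, the factor that drives myelination, had 5986 and 8642 in cochlear and vestibular neurons, 1413 and 1779 in epithelial cells, 1452 and 1152 in mesenchyme, and 338 and 1851 in vascular endothelium, a difference of 2.61 ± 0.52 (SE, adjusted p = 0.0467). Its corepressors Nab1 and Nab2 were not called, and neither was Hey2 with 1473 and 638 against 32.9 to 429 (2.71, adjusted p = 0.151). The relatives of Sox10 did not share its pattern. Among the other SoxE genes, Sox9 had 158 and 503 in neurons against 3205 and 2576 in mesenchyme and Sox8 had 242 and 464 against 758 and 3405.

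**Figure D2:**
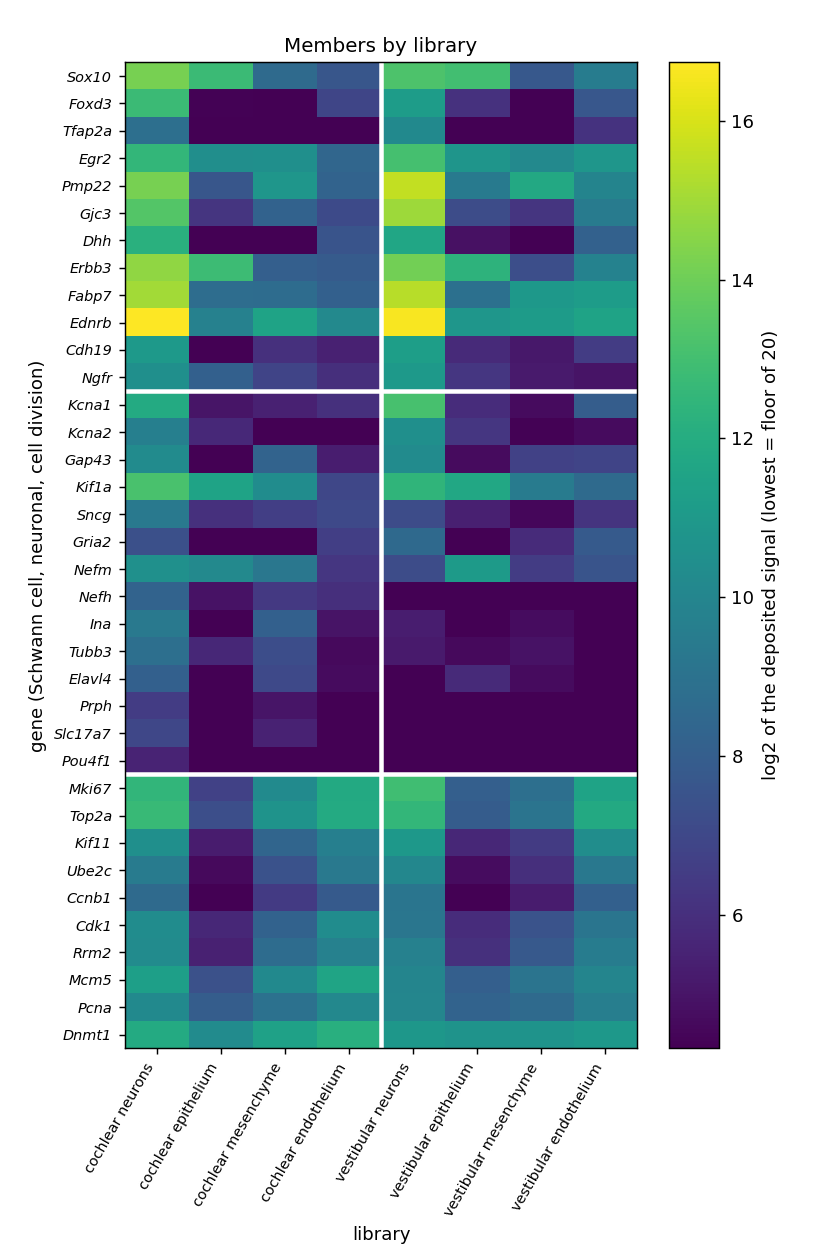
Log2 of the deposited signal of the genes named beside the rows ( Schwann cell, neuronal and cell division members, split by white lines) in the 8 libraries (columns, cochlea on the left and vestibule on the right of the white line), where the darkest color is the floor of 20. Schwann cell genes are bright in both neuron columns, Nefh, Elavl4, Prph, Slc17a7 and Pou4f1 are at the floor in vestibular neurons, and mitotic genes are bright in neurons and in vascular endothelium.

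Neuronal genes followed the label in the cochlea and not in the vestibule. Of 90 measured members of 4 lists, 8 were higher and 0 lower, which is 8.89% against 3.46% of all genes. At an unadjusted p under 0.05, 24 were higher and 3 lower, against 1545 and 1600 of the 15067 genes tested. The median difference was 0.61. The median was 1.23 in the cochlea and 0.00 in the vestibule, and 33 members were above the mean of the other 3 types in both organs. The cochlear neuron library held the highest cochlear value of 49 members, while in the vestibule 25 were highest in neurons and 26 in epithelial cells. Over all 15275 genes, these counts were 3204, 2830 and 3648. At the floor were 5 members in cochlear and 27 in vestibular neurons. Only 23 of the 90 had a higher value in vestibular than in cochlear neurons. Each organ had 1 neuron library, so this difference between organs was not tested. Beside it stand the endothelial and epithelial markers that were higher in vestibular neurons, and their part in it was not tested.

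The cytoskeleton and growth list had 3 of 22 members higher, with medians of 2.17 in the cochlea and 0.02 in the vestibule. Gap43, a growth cone protein that immature Schwann cells also make, had 1271 and 1272 in cochlear and vestibular neurons, 20 and 26 in epithelial cells, 313 and 107 in mesenchyme, and 39.6 and 116 in vascular endothelium, with a difference of 4.28 ± 0.61 (SE, adjusted p = 0.0211). Kif1a, the motor of synaptic vesicle precursors, had 9294 and 5559.5 in cochlear and vestibular neurons, 2918 and 3488 in epithelial cells, 1314 and 724 in mesenchyme, and 126 and 392 in vascular endothelium, and epithelial cells came next. Sncg, the gamma synuclein of peripheral neurons, had 644 and 146 in neurons against 23.3 to 135. Several cytoskeletal genes of axons had a high value in cochlear neurons and a low one in vestibular neurons. Ina, the internexin gene, had 651 and 40.4 in cochlear and vestibular neurons, 20 and 20 in epithelial cells, 278 and 27 in mesenchyme, and 31 and 20 in vascular endothelium, and its difference was 2.21 (adjusted p = 0.205). Nefh had 305 and 20 and Prph, the peripherin of small axons, had 91.5 and 20 in the neuron libraries. Tubb3, the neuronal tubulin, had 469 and 36.9. Mesenchyme was the next highest cochlear library for each of Ina, Nefh, Prph and Tubb3, with 152 and 30.6 for Tubb3.

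Neuronal RNA-binding proteins and transcription factors had 1 of 20 members higher, which is 5% against 3.46% of all genes, with a median of 0.04 (0.39 in the cochlea and -0.31 in the vestibule). That member was Runx1, a factor of some sensory neurons and of blood cells, with 181 and 227 against 20.4 to 96.8. Elavl3 and Elavl4, whose Hu proteins mark neurons, had 224 and 43.8 and 276 and 20, and Pou4f1, the POU factor of sensory ganglia, had 47.1 and 20. Gata3 and Isl1, which act both in inner ear neurons and in the sensory epithelium, were highest in epithelial cells, with 4940.1 and 773 against 61.4 and 132 in neurons for Gata3 and 3054 and 1318 against 123 and 198 for Isl1.

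Synapse genes had 1 of 25 members higher, a share of 4% that is near the 3.46% of all genes, with medians of 1.27 in the cochlea and 0.00 in the vestibule. The member was Gria2, an AMPA receptor subunit of neurons and some glia, with 162 and 378 in cochlear and vestibular neurons, 20 and 20 in epithelial cells, 20 and 58 in mesenchyme, and 98.4 and 227 in vascular endothelium. The groups overlapped, since vestibular vascular endothelium exceeded cochlear neurons. The vesicular glutamate transporter Slc17a7 had 124 and 20, and Snap25, a SNARE protein of synaptic vesicle release, had 259 and 58 in neurons against 94.9 and 120.0 in epithelial cells. Syt1 was highest in cochlear mesenchyme with 2989, against 152 and 249 in neurons.

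Ion channels and calcium buffers had 3 of 23 members higher, with medians of 1.20 in the cochlea and -0.16 in the vestibule. Kcna1 and Kcna2 had the largest differences of the neuronal members called. Kcna1, the Kv1.1 potassium channel of axons, had 3912 and 9067 in cochlear and vestibular neurons, 32.5 and 59.8 in epithelial cells, 43.6 and 26 in mesenchyme, and 66.9 and 254 in vascular endothelium, a difference of 6.69 ± 0.56 (SE, adjusted p = 0.0063). Kcna2, its Kv1.2 partner, had 821 and 1439 in cochlear and vestibular neurons, 54.1 and 76.8 in epithelial cells, 20 and 21 in mesenchyme, and 20 and 25.4 in vascular endothelium, a difference of 5.13 ± 0.34 (SE, adjusted p = 0.0054). Unlike most members, both had their higher neuron value in the vestibule, and both were higher than each of the 3 other types. Of the 22 myelin members, 12 also had their higher neuron value in the vestibule. Whether neurons or glia of the fraction held Kcna1 and Kcna2 was not tested. Scn3b, a sodium channel beta subunit, had 578 and 391 against 20 to 142. The channel gene Kcnc1 had 65.6 and 20, and Calb2 and Pvalb, the calcium buffers of inner ear neurons and hair cells, had 268 and 20 and 205 and 20 in neurons against 284 and 488 and 486 and 254 in epithelial cells.

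**Figure D3:**
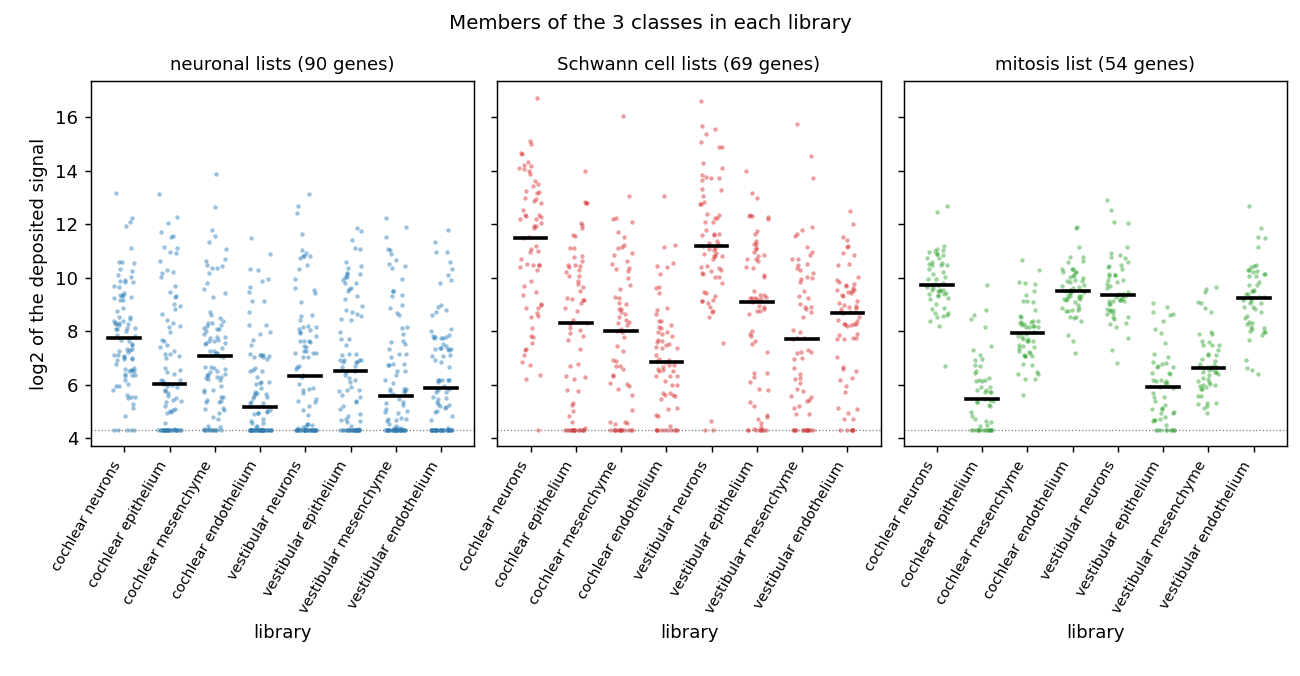
Log2 of the deposited signal of each member of the neuronal lists, the Schwann cell lists and the mitosis list (points) in the 8 libraries, with the median as a bar and the floor as a dotted line. Medians of the Schwann cell lists are 11.49 and 11.18 in cochlear and vestibular neurons and 6.83 to 9.10 elsewhere, those of the neuronal lists are 7.74 and 6.32 in neurons, and those of the mitosis list are 9.72 and 9.36 in neurons and 9.49 and 9.26 in vascular endothelium.

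Genes of cell division were high in the neuron and glia fraction in both organs. Of 110 measured members, 33 (30%, against 3.46% of all genes) were higher and 0 lower, and 103 were above the mean of the other 3 types in both organs, against 4691 of the 15067 genes tested. The median difference was 1.54, with 1.64 in the cochlea and 1.67 in the vestibule. At an unadjusted p under 0.05, 87 members were higher and 1 was lower, against 1545 and 1600 of all genes tested. The median difference from vascular endothelium alone was 0.20 over the 110 members, and none was called against each of the 3 types. By cell type, the mitosis list had a median difference of 4.18 against epithelial cells, 2.40 against mesenchyme and 0.36 against vascular endothelium, with 51, 16 and 0 of its 54 members higher. Over all genes, the shares higher in these contrasts were 6.29%, 2.67% and 4.53%. Against vascular endothelium, none of the 110 members passed in limma in either direction. At an unadjusted p under 0.05, 3 were higher and 1 was lower in this contrast, against 1588 and 1541 of all genes tested.

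The mitosis list had 29 of 54 members higher, a median of 2.30 (2.28 in the cochlea and 2.33 in the vestibule) and all 54 members above the mean of the others in both organs. Mki67, the gene of the Ki-67 antigen of dividing cells, had 5709 and 7702 in cochlear and vestibular neurons, 107 and 273 in epithelial cells, 1239 and 463 in mesenchyme, and 3686 and 2968 in vascular endothelium, a difference of 3.14 ± 0.51 (SE, adjusted p = 0.0294). Top2a, the topoisomerase that untangles chromosomes, had 6606 and 5986 in cochlear and vestibular neurons, 156 and 242 in epithelial cells, 1643 and 545 in mesenchyme, and 3814 and 3721 in vascular endothelium, a difference of 2.83 ± 0.42 (SE, adjusted p = 0.0236). The lowest values were those of epithelial cells, in which Ccnb1, the mitotic cyclin, was at the floor in both organs, with 391 and 574 in neurons, 85.4 and 38.9 in mesenchyme and 229.5 and 277 in vascular endothelium. Kif11, a spindle motor, had 1433 and 1961 in neurons and 829.9 and 1346 in vascular endothelium, and Bub1, a spindle checkpoint kinase, had 840.4 and 978 and 645 and 1415. In the vestibule Bub1 was thus higher in vascular endothelium.

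Genes of DNA replication differed less. Of 42 members 1 was higher, a share of 2.38% that is below the 3.46% of all genes. It was Rrm2, the ribonucleotide reductase subunit made in S phase, with 1266 and 867 in cochlear and vestibular neurons, 43.6 and 66.1 in epithelial cells, 422 and 222 in mesenchyme, and 883 and 752 in vascular endothelium. The list had a median of 1.16, with 1.16 in the cochlea and 1.10 in the vestibule, and 40 members were above the mean of the others in both organs. Its median was 2.37 against epithelial cells, with 30 members higher, as were 6.29% of all genes. It was 1.16 against mesenchyme and 0.05 against vascular endothelium, with none called in either. At an unadjusted p under 0.05, 22 members were higher than mesenchyme and 0 than vascular endothelium, against 1430 and 1588 of the 15067 genes tested. Mcm5, a subunit of the replicative helicase, had 2600.0 and 1004 in cochlear and vestibular neurons, 169.8 and 267 in epithelial cells, 1189 and 546 in mesenchyme, and 3059 and 1001 in vascular endothelium, so that cochlear vascular endothelium was the highest of its organ, and the difference was 1.27 (adjusted p = 0.189). Pcna, the sliding clamp, had 1193 and 1052 in neurons and 1100.5 and 801 in vascular endothelium (1.21, adjusted p = 0.0619). Among regulators of G1, 3 of 14 were higher, namely Cdkn2c, an inhibitor of CDK4 and CDK6, with 925 and 505 against 20 to 369.8, Cdk6 with 437 and 1759.9 against 37.3 to 287, and Ccnd1, the cyclin D1 gene, with 7590.4 and 11039 against 1183 to 6203. The inhibitor gene Cdkn1b, whose product keeps postmitotic cells out of the cycle, had 2611 and 1913 in neurons against 1224 to 3189.9 and was not called.

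**Figure D4:**
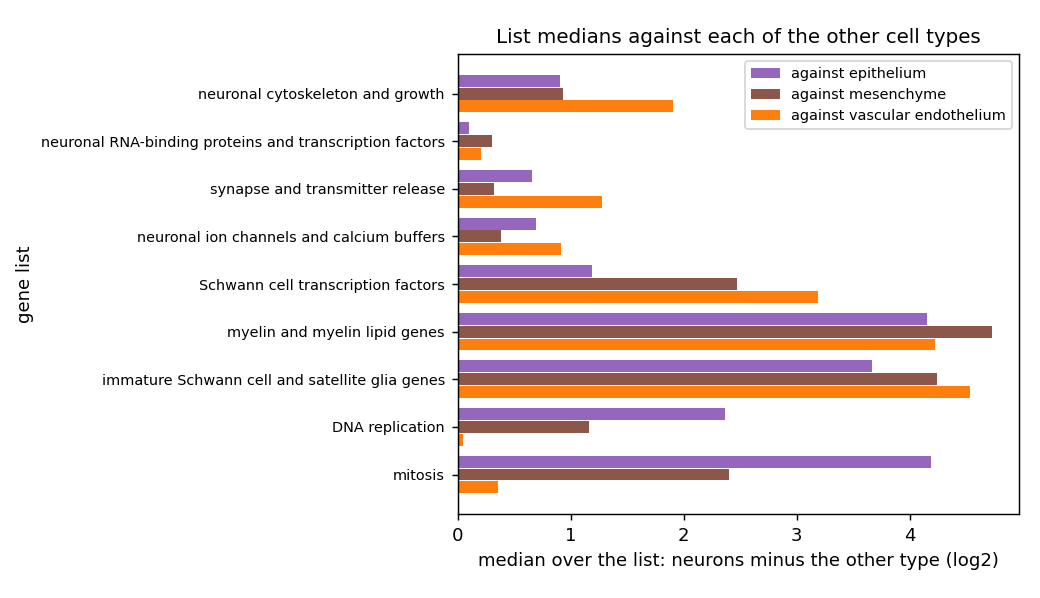
Median log2 difference of 9 gene lists (rows) between the neuron and glia fraction and each of the other cell types (bar colors), from the model over both organs. The mitosis list falls from 4.18 against epithelium through 2.40 against mesenchyme to 0.36 against vascular endothelium, while the myelin list is above 4 against each type.

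The members of the mitosis list moved together, so their promoters were read from RefSeq windows of GRCm38.p6 that hold the 250 bases before a start site. Genes expressed in G2 and M are known to carry a CHR element, to which the MuvB complex binds, beside CCAAT boxes, the sites of NF-Y. The letters TTTGAA (CHR) and CCAAT were searched on both strands. Of 54 members 47 were matched, with 50 windows because some genes have several start sites, and 38% of these windows held the CHR letters, 74% held CCAAT and 34% held both. Over all 32851 windows of the table, the shares were 16.0%, 33.8% and 5.55%. The 43 windows of 35 matched replication genes had 14.0%, 60.5% and 11.6%, and the 85 windows of 53 matched Schwann cell genes had 16.5%, 42.4% and 7.06%. Among the mitosis genes themselves, both motifs were in 36% of the 25 windows of members called higher and in 32% of the 25 of members not called. For the lettered motif ACAAAG, a form of the SOX site, the share was 20% of the Schwann cell windows and 16.5% of all windows. A match in these letters is a description of the window and no evidence of binding.

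Of the mitosis members called higher, 8 held both motifs in the last 150 bases before the start. These bases are shown for the 6 of them whose CHR letters began within 30 bases of the start, to let the spacing be seen, and for Fabp7 as the glial marker of the fraction. Capitals mark TTTGAA and CCAAT on either strand (TTCAAA and ATTGG where the match is on the other strand). The windows are those of Cdk1 (chr10:69352913-69353062, minus strand), Top2a (chr11:99024190-99024339, minus strand), Ube2c (chr2:164769779-164769928, plus strand), Kif11 (chr19:37376232-37376381, plus strand), Prc1 (chr7:80294326-80294475, plus strand), Ckap2l (chr2:129297213-129297362, minus strand) and Fabp7 (chr10:57784773-57784922, plus strand).
Cdk1: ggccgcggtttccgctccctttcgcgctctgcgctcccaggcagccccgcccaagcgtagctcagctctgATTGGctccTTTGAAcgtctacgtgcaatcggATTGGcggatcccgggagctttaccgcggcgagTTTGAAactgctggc
Top2a: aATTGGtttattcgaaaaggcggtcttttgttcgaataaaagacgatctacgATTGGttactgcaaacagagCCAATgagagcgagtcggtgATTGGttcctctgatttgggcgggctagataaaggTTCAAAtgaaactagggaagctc
Ube2c: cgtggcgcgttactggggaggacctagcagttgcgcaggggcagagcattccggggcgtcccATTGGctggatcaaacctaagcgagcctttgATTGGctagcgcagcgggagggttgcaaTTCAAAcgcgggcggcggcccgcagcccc
Kif11: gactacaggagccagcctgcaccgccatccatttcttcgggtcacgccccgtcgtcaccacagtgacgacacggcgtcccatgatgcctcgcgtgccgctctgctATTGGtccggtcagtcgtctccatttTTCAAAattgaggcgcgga
Prc1: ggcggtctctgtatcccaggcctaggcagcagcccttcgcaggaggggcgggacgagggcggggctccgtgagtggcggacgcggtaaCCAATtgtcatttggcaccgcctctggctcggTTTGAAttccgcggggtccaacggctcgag
Ckap2l: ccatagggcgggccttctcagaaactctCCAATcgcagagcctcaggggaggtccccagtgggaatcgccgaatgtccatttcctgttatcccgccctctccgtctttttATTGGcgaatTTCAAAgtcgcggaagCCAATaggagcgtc
Fabp7: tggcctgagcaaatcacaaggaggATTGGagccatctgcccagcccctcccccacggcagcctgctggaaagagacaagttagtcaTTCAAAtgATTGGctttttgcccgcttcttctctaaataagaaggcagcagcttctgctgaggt

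In the mitosis windows shown, the nearest CHR letters began 15 bases before the start in Cdk1 and up to 30 bases before it in Prc1 and Ckap2l, with a CCAAT box upstream of them. Cdk1, the kinase that drives entry into mitosis, had 1294 and 586 in neurons, 1296 and 562 in vascular endothelium and 52.6 and 60.6 in epithelial cells. Ube2c, the ubiquitin-conjugating enzyme of mitotic exit, had 726 and 1070.5 in cochlear and vestibular neurons, 25 and 26.3 in epithelial cells, 172 and 63.1 in mesenchyme, and 638 and 623 in vascular endothelium, and Prc1, a protein of the central spindle, had 1504 and 1106 in neurons and 953 and 848 in vascular endothelium, with 52.6 and 100.5 in epithelial cells. Ckap2l, a spindle protein gene, had 839.9 and 634 in neurons against 26.5 to 572. Fabp7, whose window also held both motifs with the CHR letters 64 bases before the start, exceeded the next library of the organ by 75.9-fold in the cochlea and 18.7-fold in the vestibule and had 281 and 2289.8 in vascular endothelium.

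Beyond the lists, the fraction had a set of genes that were at least 4-fold above each of the other 3 types of the organ. There were 247 such genes in the cochlea (1.64%) and 238 in the vestibule (1.58%), and 145 in both (0.962%), which is 58.7% of the cochlear and 60.9% of the vestibular ones. Of the 145, 144 were called in limma, 34 were in the Schwann cell lists, 3 in the neuronal lists and 0 in the cell division lists. With vestibular vascular endothelium left out the count was 157. Plxnb3, a semaphorin receptor gene, had 5012 and 3506 in cochlear and vestibular neurons, 114 and 229 in epithelial cells, 23 and 20 in mesenchyme, and 73.8 and 113 in vascular endothelium, and Cdh20, a type II cadherin gene, had 1161 and 1173 in cochlear and vestibular neurons, 20 and 22.6 in epithelial cells, 20 and 20 in mesenchyme, and 37.9 and 20 in vascular endothelium. Vat1l had 1998 and 1780.4 against 20 to 91.8, and Aatk, which encodes a kinase of nervous tissue, had 40862 and 8365 against 452 to 1332. For 11 genes all 6 other libraries were at the floor, among them Pmp2, Gfra3 with 224 and 189, which encodes the artemin receptor subunit, and, chosen after their values were seen, S100a4 with 340.4 and 409.9 and Prima1 with 384 and 211, whose product anchors acetylcholinesterase. S100a4 was thus at least 20.5-fold higher in the vestibule.

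A basal lamina, the sheet of laminin that surrounds each Schwann cell, is held by integrins and dystroglycan. In the list of basement membrane genes and their receptors 8 of 24 members were higher (33.3%, against 3.46% of all genes) and 1 lower. The 8 include Itga6, the gene of a sorting antigen. The list's median was 1.70, with 1.87 in the cochlea and 1.40 in the vestibule. Against vascular endothelium alone it was 0.51, and 2 members were higher than each of the 3 types. The sum of the list was 564199 in cochlear neurons and 572500 in cochlear vascular endothelium. Lama2, the laminin chain of the endoneurium, had 28959.6 and 12644 in cochlear and vestibular neurons, 259 and 389 in epithelial cells, 5904 and 10171 in mesenchyme, and 254 and 1079.8 in vascular endothelium, so mesenchyme came next. Dag1, the dystroglycan receptor of laminin, had 30702 and 27889 in cochlear and vestibular neurons, 6085 and 6586 in epithelial cells, 6388 and 7019.9 in mesenchyme, and 4349.5 and 4396 in vascular endothelium, a difference of 2.36 ± 0.26 (SE, adjusted p = 0.0109). Itga7 had 4211 and 732 against 57.1 to 139, and Itgb4, the partner of integrin alpha 6, had 3189.9 and 1873 in neurons with 1712 and 3007 in epithelial cells. Itgb8 and Itgb3, 2 integrin genes outside the list, had 20314 and 20852 against 151 to 1236 and 9959.8 and 5966 against 61.8 to 499. Lamc1 and Lamb1 had high levels in neurons, 98907 and 58438 and 64474 and 21921, and did not pass, with differences of 2.22 (adjusted p = 0.0546) and 1.71 (adjusted p = 0.122). Itga3, an integrin of epithelia, was the lower member, with 97.4 and 213 in neurons and 1972 and 2641 in epithelial cells. Cholesterol and fatty acid synthesis, which feeds myelin growth, had 1 of 25 members higher, a share of 4% that is near the 3.46% of all genes. It was Scd1, a fatty acid desaturase gene, with 6137 and 4746 against 159 to 1464. The list's median was 0.82 (0.97 in the cochlea and 0.64 in the vestibule). Of its members, 22 were highest in neurons in the cochlea and 16 in the vestibule, against 3204 and 2830 of all 15275 genes. In the neuregulin and neurotrophin list, none of 17 members was called in limma. At an unadjusted p under 0.05, 5 were higher and 4 lower, against 1545 and 1600 of the 15067 genes tested. Ntrk2, the receptor of BDNF, had 1926 and 3050.5 in cochlear and vestibular neurons, 336 and 224 in epithelial cells, 3129.6 and 3358 in mesenchyme, and 88.9 and 379 in vascular endothelium, and Gfra2, a neurturin receptor subunit, had 1689.5 and 1716 against 41.8 to 549 (3.40, adjusted p = 0.0756). The ligands Ntf3 and Bdnf were highest in epithelial cells, with 428 and 163 and 213 and 340.4, and Ntf3 was at the floor in both neuron libraries.

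**Figure D5:**
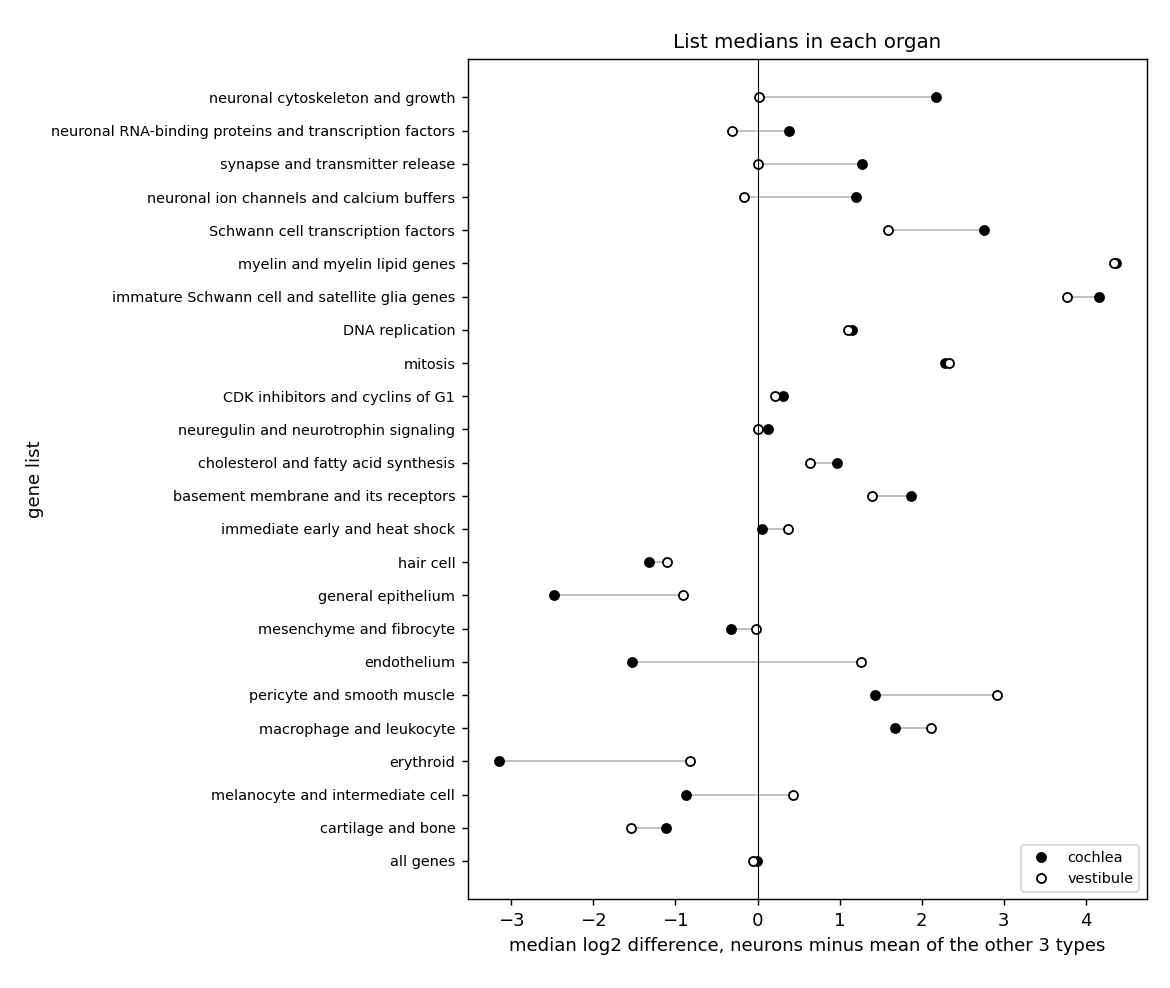
Median log2 difference of each gene list (rows) between the neuron library and the mean of the other 3 cell types, in the cochlea (filled) and in the vestibule (open), with all genes in the bottom row. The myelin, mitosis and replication lists have nearly the same median in both organs, the Schwann cell transcription factors go from 2.76 in the cochlea to 1.59 in the vestibule, the 4 neuronal lists are between 0.39 and 2.17 in the cochlea and between -0.31 and 0.02 in the vestibule, and the endothelium list goes from -1.53 to 1.26.

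Fewer genes were called lower than higher, while at an unadjusted p under 0.05 there were 1600 lower and 1545 higher. The 219 lower genes had a median of -2.15 (range -3.85 to -1.07), and both neuron libraries lay below all 6 others for 123 of them, against 3.27% of all genes. Irx3, an Iroquois homeobox gene on chromosome 8 from 91798525 to 91802067, had 106 and 209 in cochlear and vestibular neurons, 4294 and 1286 in epithelial cells, 4914 and 2571 in mesenchyme, and 2267 and 629 in vascular endothelium, a difference of -3.85 ± 0.56 (SE, adjusted p = 0.0215), and its neighbor in the cluster Irx5 had 56.9 and 160.3 in cochlear and vestibular neurons, 2557 and 784 in epithelial cells, 2382 and 1135 in mesenchyme, and 584 and 1042 in vascular endothelium. Both were lower in cochlear than in vestibular neurons. Tcea3, a transcription elongation factor gene, was at the floor in both neuron libraries and had 109 to 546 in the others. Tnfrsf11b, the osteoprotegerin gene, had 20 and 48.6 against 160.3 to 1078, and Sema3f, which encodes a secreted axon repellent, had 94.3 and 197 against 515 to 2542. Dpp4 had 27.8 and 140.4 against 238 to 1416, and Scx, a tendon factor, had 20.9 and 29 against 35.9 to 605. Only 8 genes were at least 4-fold below each of the other 3 types in both organs (0.0531%). Among hair cell genes 2 of 20 were lower, against 1.45% of all genes. They were Tmem255b with 20 and 29.5 and Myo6, an unconventional myosin of hair cells, with 1688 and 1969.9 against 3237 to 8864. Against epithelial cells alone, 19 of 20 hair cell genes and 26 of 26 epithelial genes were lower, as were 7.23% of all genes.

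Markers of other cell types were in part higher in the fraction. The pericyte and smooth muscle list had 5 of 14 members higher (35.7%, against 3.46% of all genes) and 0 lower. At an unadjusted p under 0.05 these were 11 and 0, against 1545 and 1600 of the 15067 genes tested. The list's median was 2.25, with 1.43 in the cochlea and 2.92 in the vestibule. Against mesenchyme alone it was 0.725 with 1 member higher, and no member was called against each of the 3 types. The sum of the list was 23546 in cochlear neurons, 174270.5 in vestibular neurons and 8155 to 22411 in the other libraries. Of the 14 members, 12 were higher in vestibular than in cochlear neurons. Rgs5, a regulator of G protein signaling in pericytes, made up most of the vestibular sum, with 6598 and 147259.9 in cochlear and vestibular neurons, 91 and 709 in epithelial cells, 3700.5 and 5381 in mesenchyme, and 128 and 1751 in vascular endothelium. Cspg4, the NG2 proteoglycan gene, had 1595 and 1472 in cochlear and vestibular neurons, 20 and 55.6 in epithelial cells, 1063 and 1395 in mesenchyme, and 39.3 and 75.6 in vascular endothelium, and Acta2, the smooth muscle actin gene, had 61.5 and 955 against 20 to 53.4 and was not called (3.04, adjusted p = 0.11). The macrophage and leukocyte list had 6 of 16 members higher (37.5%), with a median of 1.96 (1.67 in the cochlea and 2.12 in the vestibule). All 16 were above the mean of the others in both organs. Against vascular endothelium alone, the list had a median of 0.90 and no member called. Its sums were 3339.7 and 4531 in neurons and 619.6 to 4229.6 elsewhere, and among its members Mrc1, a mannose receptor of macrophages, had 619.6 and 947 in neurons and 563 and 692 in vascular endothelium, and Tyrobp had 94.1 and 115 against 20 to 51.8. In the mesenchyme list 2 of 22 members were higher, against 3.46% of all genes. They were the collagen gene Col3a1 with 147259.9 and 64474 in neurons and 74990.4 and 58438 in mesenchyme, and Postn, the periostin gene, with 15679 and 22108 and 3644 and 1184. In the contrast with mesenchyme itself 9 members were lower, as were 2.23% of all genes. The part of these cells in the gene counts of the fraction was not tested. None of the 7 erythroid genes was higher and 1, Hbb-bt, was lower in limma (0 and 5 at an unadjusted p under 0.05), with sums of 392.3 and 2985 in neurons against 89582 and 169830.3 in mesenchyme.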

How the data were processed

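The table holds 15275 genes in 8 mRNA-seq libraries. The authors aligned reads with TopHat 1.0.0 (named with GRCm38 in the submitters' processing notes) and deposited a signal per gene. The sources used here do not say how it was counted and normalized, or whether it was divided by gene length. The sorted values are identical in all 8 libraries, 2058 genes per library have the lowest value of 20, and depth is unknown, so no counting error can be given. Levels are compared between libraries for a gene or list, not between genes. The labels and the paper's methods give postnatal day 0 and its results postnatal day 2.

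Coordinates came from GENCODE vM21, which held 15030 of the identifiers, and 20 symbols stored as date numbers were restored from it. The 208 genes at 20 in all libraries were left out. log2 of the value was fitted with limma 3.58.1 (R 4.3.3, mean-variance trend, 3 residual degrees of freedom) with cell type and organ as terms, with Benjamini-Hochberg adjustment at 0.05 over 15067 genes. No value was 0, so no pseudocount was added, and a fold change near the floor is understated. The model was tested on simulated data. Summaries used Python 3.11.15. Two-sided tests were used throughout.

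The genes named are the sorting and marker genes, members of the neuronal, Schwann cell and division lists, the leading members of other lists, the 30 highest and 20 lowest differences with both neuron libraries beyond the 6 others, and the 10 highest genes at least 4-fold above. Members and lists were chosen with earlier results of these data known. Alternatives were pseudocounts, filters, scaling, the organ and trend terms, other references and libraries left out. Some list members are counted but not reported by name here.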

Additional observations from a re-analysis of the deposited data

Results flagged for a closer look

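The 3 genes below moved in opposite directions in the organs, above all 3 other cell types in the cochlea and below all 3 in the vestibule. With 1 library per cell type and organ, these differences were not tested. By the looser measure of the mean of the other 3 types, 5034 of the 15067 genes tested were not on the same side in both organs. Cacna1a, a calcium channel gene, had 158 and 20 in neurons and 33.5 to 138 in the others, which is 1.02 above the mean of the others on the log2 scale in the cochlea and -1.24 in the vestibule, where neurons were at the floor. P2rx3, a purine receptor gene of sensory neurons, had 335 and 23.3 in cochlear and vestibular neurons, 250.3 and 378 in epithelial cells, 182 and 106 in mesenchyme, and 236 and 73.1 in vascular endothelium, with 0.60 and -2.62. Mvd, a gene of cholesterol synthesis, had 561 and 188 in cochlear and vestibular neurons, 512 and 499 in epithelial cells, 394 and 339 in mesenchyme, and 518 and 210.3 in vascular endothelium, with 0.25 and -0.81.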

How the results depend on the processing

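The calls rest on few samples. A pseudocount of 1 or 20, no filter, a highest value of at least 100, no trend, median-of-ratios scaling and no organ term gave 350 to 579 genes higher and 160 to 265 lower, against 522 and 219. The labels carry no replicate numbers, and the organ term of the model pairs the libraries of an organ as a block. Without it (no replicate block) 550 genes were higher and 240 lower. Leaving out 1 library gave 0 to 252 higher and 0 to 185 lower, and leaving out both vestibular neurons and vestibular vascular endothelium, a choice made after seeing the data, gave 0 of each (smallest adjusted p 0.117, with 1615 higher and 1808 lower at an unadjusted p under 0.05). Fewer samples leave fewer degrees of freedom in such fits, and the part of this in the lost calls was not tested. Of the 522 genes, 492 were fitted under the filter of at least 100, and the 522 and 219 genes kept their sign in every limma fit that included them.

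The list medians depended on the reference. Against the highest of the other 3 types in place of their mean, the Schwann cell median was 2.71, that of cell division 0.15 and that of the neuronal lists -0.36, and Bub1 (-0.076), Bub1b (-0.14), Nuf2 (-0.046) and Drp2 (-0.17) changed sign. In that comparison 491 of the 522 higher genes stayed positive, and against the median of the other types 208 of the 219 lower genes stayed negative. With 1 library left out, the medians ranged from 3.42 to 4.08 for Schwann cell, 1.43 to 1.71 for cell division and 0.00 to 1.23 for neuronal genes, and the vestibular libraries alone gave 3.42 for Schwann cell genes. For cell division, the median was 1.40 with a pseudocount of 20, 1.59 with a highest value of at least 100, 1.52 with median-of-ratios scaling, 1.69 against the median of the other types, 1.64 in the cochlear libraries alone and also without both the vestibular neurons and vascular endothelium, and 1.67 in the vestibular libraries alone. At least 2-fold in place of 4-fold gave 324 genes in both organs and at least 8-fold gave 58. The causes were not tested.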
